A study of Mus musculus with 14 samples.

Results

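The RNAs described here are 10 long noncoding RNAs (lncRNAs) of the nucleus, of small nucleolar RNA (snoRNA) host loci and of imprinted loci, namely Malat1, Neat1, Kcnq1ot1, Gas5, Snhg1, Snhg12, Norad, H19, Meg3 and Miat. They were taken by name from a count table of 56941 genes from aortic valve leaflets, after its Ensembl identifiers were matched to GENCODE symbols. All 10 were listed in the table. Testing required a mean of 10 or more counts across the 14 libraries, which 9 of the 10 reached and Miat did not, as did 19145 genes in all and 2263 of the 11141 genes annotated as lncRNA.

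Leaflets came from wild-type male C57BL/6J mice, 8 weeks old at the start, and every group, the controls included, ate the hypercholesterolemic Breslow Western Diet. Ctrl mice (n = 4) were untreated. LY mice (n = 2) received LY272015, which blocks the serotonin receptor HTR2B, at 3 mg/kg by repeated intraperitoneal injection. AngII mice (n = 4) received angiotensin II, a peptide that raises blood pressure, at 1000 ng/kg/min from a subcutaneous osmotic pump for 28 days, and AngII+LY mice (n = 4) received both. Pumps were taken out of AngII and AngII+LY mice 48 h before tissue collection, in all of these mice by one source and in some of them by another, so it is not known which of the libraries came after the infusion had ended. For 4 of the 6 mice given the antagonist the treatment label carries a compound number that runs on from sample to sample, and these mice were grouped by sample title. Each library is labelled as a separate sample, and whether leaflets of several mice were pooled is not given in the sources used here, so p-values measure the spread between these libraries.

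Library totals ran from 20990655 counts (AngII 4) to 73128220. Counts on the mitochondrial genome made up 4.00 to 7.52% of Ctrl libraries, 8.62 and 9.76% of LY, 9.83 to 25.5% of AngII and 10.1 to 20.2% of AngII+LY libraries. The 3 libraries above 20% were AngII 3 (24.7%), AngII 4 (25.5%) and AngII+LY 1 (20.2%), and values without them are given beside the results. Markers of valve interstitial cells made up 0.711 to 1.5% of counts in Ctrl libraries with none of the 8 at 0, and markers of cardiomyocytes made up 0.842 to 2.78%, so the libraries held cardiomyocyte RNA beside that of the valve.

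An lncRNA is transcribed much like a messenger RNA, and in some cases spliced, but is not known to encode a protein. Its abundance, its place in the cell and the loci it lies in are read in place of a protein product. The longest annotated transcripts of Malat1 and Neat1 hold no intron. Malat1 collects in nuclear speckles, the stores of splicing factors, and Neat1 is the scaffold on which paraspeckles are built. Malat1 and the long form of Neat1 are cut at the 3′ end by RNase P and are protected there by a triple helix in place of a poly(A) tail. Gas5, Snhg1 and Snhg12 are spliced hosts whose introns release snoRNAs, guides for the modification of ribosomal RNA, while their exons are cleared by nonsense-mediated decay. Norad is a cytoplasmic RNA that binds Pumilio proteins, which repress messenger RNAs of mitosis. H19 and Meg3 are transcribed from the maternal chromosome and Kcnq1ot1 from the paternal one, where it silences the neighbouring genes of its imprinted domain.

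The 3′ ends of Malat1 and Neat1 are shown because they carry the elements that stabilise Malat1 and the long form of Neat1 without a poly(A) tail, which bears on how such RNAs enter a library. Capitals mark the A-rich tract and the U-rich stretches that the search pattern found (a shorter one in Neat1 stays in lower case), written as DNA of the transcribed strand. The Malat1 stretch is chr19:5846010-5846119 on the minus strand of GRCm39, positions 7484 to 7593 of the gene, which is annotated 293 bases beyond it. The Neat1 stretch is chr19:5874736-5874845, minus strand, positions 22288 to 22397, and ends with the annotated gene.
Malat1: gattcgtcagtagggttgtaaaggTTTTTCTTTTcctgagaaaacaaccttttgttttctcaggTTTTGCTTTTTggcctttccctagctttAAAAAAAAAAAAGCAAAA
Neat1: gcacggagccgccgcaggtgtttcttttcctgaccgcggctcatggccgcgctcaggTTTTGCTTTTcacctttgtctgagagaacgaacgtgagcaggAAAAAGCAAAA

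The starts of the snoRNA hosts are shown because such genes often begin, like the messenger RNAs of ribosomal proteins, with a run of pyrimidines (a 5′ TOP motif) that ties them to growth control. Each line gives 20 bases before and 30 bases from the RefSeq start on GRCm39, and capitals mark the unbroken run of C and T that spans the start: Gas5 at chr1:160862716-160862765, Snhg12 at chr4:132035969-132036018 and Snhg1 at chr19:8700831-8700880, all on the plus strand.
Gas5: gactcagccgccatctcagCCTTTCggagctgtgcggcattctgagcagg
Snhg12: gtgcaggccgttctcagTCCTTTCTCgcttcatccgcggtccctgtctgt
Snhg1: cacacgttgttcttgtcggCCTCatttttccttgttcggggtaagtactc
The run was 6 bases long in Gas5, 9 in Snhg12 and 4 in Snhg1. RefSeq lists another, upstream start of Gas5, where the run was 0. A run of at least 5 bases spanned the start in 10.1% of 32851 RefSeq promoters, in 4 of 14 other snoRNA host genes and in 4 of 10 5′ TOP protein genes.

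The promoters of Malat1, Kcnq1ot1 and Gas5 are shown because each holds a TGACGT match close to a start. Each runs from 250 bases before to 50 bases after the RefSeq start on GRCm39: Malat1 at chr19:5852651-5852950 (minus), Kcnq1ot1 at chr7:142850235-142850534 (minus) and Gas5 at chr1:160862486-160862785 (plus). Capitals mark TGACGT, the core of the element bound by CREB and ATF factors, and CCAAT. Both were searched on both strands, so that TGACGT also appears as ACGTCA, while CCAAT was found only in this form.
Malat1: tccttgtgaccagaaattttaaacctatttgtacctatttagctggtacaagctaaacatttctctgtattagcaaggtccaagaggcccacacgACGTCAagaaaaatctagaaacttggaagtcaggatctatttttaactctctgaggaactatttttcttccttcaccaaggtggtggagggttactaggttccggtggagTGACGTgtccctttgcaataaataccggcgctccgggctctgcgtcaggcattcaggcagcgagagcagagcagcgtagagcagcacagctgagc
Kcnq1ot1: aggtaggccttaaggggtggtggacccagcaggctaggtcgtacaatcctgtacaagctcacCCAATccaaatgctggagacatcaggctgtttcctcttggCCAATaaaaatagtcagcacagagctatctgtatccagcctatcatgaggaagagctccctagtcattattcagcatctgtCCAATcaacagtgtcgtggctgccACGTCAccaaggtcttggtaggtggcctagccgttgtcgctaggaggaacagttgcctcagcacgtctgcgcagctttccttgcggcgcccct
Gas5: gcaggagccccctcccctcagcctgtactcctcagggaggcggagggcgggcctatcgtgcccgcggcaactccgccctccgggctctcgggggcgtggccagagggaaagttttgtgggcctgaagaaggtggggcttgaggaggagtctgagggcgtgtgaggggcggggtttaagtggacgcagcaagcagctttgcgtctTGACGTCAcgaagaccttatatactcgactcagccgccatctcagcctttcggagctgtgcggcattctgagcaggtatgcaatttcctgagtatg
A TGACGT match began 45 bases before the start in Malat1, 43 in Kcnq1ot1 and 46 in Gas5, where matches on both strands overlap as TGACGTCA. Such a match lay in 7.51% of the 32851 promoters and within 50 bases before the start in 2.55%, a window chosen after the positions were seen. The window of the other Gas5 start held 0 matches. Meg3 held overlapping matches that began 57 and 55 bases before one of its starts and 0 at the other. RefSeq promoters were at hand for 7 of the 10 genes, not for H19, Neat1 or Norad. A match is a description of the letters and not a site of binding.

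Norad is shown by 3 stretches of its transcript because Pumilio elements, TGTANATA in DNA letters (capitals), are what its function rests on. They lie on the minus strand of GRCm39 at chr2:156234218-156234265, chr2:156232427-156232474 and chr2:156231343-156231390.
Norad, first: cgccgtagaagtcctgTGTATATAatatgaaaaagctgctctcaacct
Norad, middle: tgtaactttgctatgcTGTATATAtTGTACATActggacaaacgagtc
Norad, last: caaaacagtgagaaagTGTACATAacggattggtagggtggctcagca
The 4945 bases of the longest Norad transcript held 11 such elements, or 2.22 per kilobase. Of 1932 tested lncRNAs with a transcript of at least 1000 bases, 2 reached that density, Norad itself included. Kcnq1ot1 held 18 in 93092 bases (0.193 per kilobase), Neat1 held 4, Gas5, Snhg1 and Miat held 1 each, and Malat1, H19, Meg3 and Snhg12 held 0.

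H19 is also the host of the microRNA miR-675, given as RefSeq lists it, with the seed in capitals, on chr7:142577112-142577133 (5p) and chr7:142577078-142577099 (3p) of GRCm38.p6, minus strand.
mmu-miR-675-5p: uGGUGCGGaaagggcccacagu
mmu-miR-675-3p: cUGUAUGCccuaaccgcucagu
Mir675, like the snoRNA genes embedded in Gas5, Snhg1 and Snhg12, was listed at 0 counts in every library, so only the host transcripts were measured.

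The most abundant of the 10 RNAs by read count were Malat1 and Neat1, which ranked 2 and 3 by mean count among the 11141 lncRNA genes. H19 ranked 6, Gas5 8, Norad 9, Meg3 18, Kcnq1ot1 41, Snhg1 124, Snhg12 185 and Miat 2446. Together the 10 RNAs took 0.0929 to 0.136% of all counts in Ctrl libraries, 0.117% in both LY libraries, 0.125 to 0.215% in AngII libraries and 0.102 to 0.145% in AngII+LY libraries. Malat1 and Neat1 made up 52.8 to 63.0% of that sum in Ctrl, 65.5 to 79.7% of it in AngII and 57.1 to 69.4% of it in AngII+LY libraries, so the Ctrl and AngII ranges did not overlap.

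Levels of different genes were compared per length, as CPM (counts scaled to the library total) per kilobase of exon, in Ctrl leaflets (mean ± SD, n = 4). H19 stood at 55.7 ± 11.6, Malat1 at 37.4 ± 14.1, Gas5 at 26.8 ± 7.79 and Norad at 24.4 ± 1.60, and each of these overlapped with its neighbour in that order. Neat1 followed at 15.6 ± 1.84, below every Norad value. Meg3 (2.81 ± 0.906), Snhg1 (2.45 ± 1.05) and Snhg12 (2.21 ± 0.616) overlapped among themselves and lay below Neat1. Kcnq1ot1, whose annotated exons span 93852 bases, stood at 0.172 ± 0.0405, and Miat at 0.0071 ± 0.0053. Over all annotated transcripts the exons of Gas5, Snhg1 and Snhg12 merge into 2, 1 and 1 blocks of 4228, 3494 and 2858 bases. These lengths take in most or all of their introns, so the levels of these hosts per length read low for the spliced RNA. Their place in the order of genes depends on this. In AngII leaflets Malat1 reached 103 ± 41.4 on this scale and H19 39.1 ± 8.96, with every Malat1 value above every H19 value.

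The first question was which of these RNAs differ in leaflets of mice that had received AngII. Malat1 was 3.47-fold higher in AngII than in Ctrl leaflets, Kcnq1ot1 2.98-fold and Neat1 1.88-fold. The differences of Norad, H19 and Meg3 were below their standard errors, and none of the 9 passed the test of the fit across all genes. Values below are normalized counts, the count scaled to the mean effective library size after TMM normalization. A gene was called at an adjusted p under 0.05 with a log2 fold change above 0.5 in size, by the edgeR quasi-likelihood test with Benjamini-Hochberg adjustment over 19145 genes, and it called 0 genes in this comparison, 4815 having an unadjusted p under 0.05 (25.2%).

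Malat1 (Ensembl ENSMUSG00000092341, chr19:5845717-5853602, minus strand, GRCm39) read 12376, 12601, 10705 and 22839 in the Ctrl mice. In the AngII mice it read 22266, 33559, 70119 and 76984. AngII 1 lay just below Ctrl 4, so the groups overlapped by 1 mouse, and AngII 3 and AngII 4, both above 20% mitochondrial counts, were the highest of all 14 libraries. The means were 50732 ± 26896 in AngII and 14630 ± 5538 in Ctrl (SD, n = 4 each), a log2 fold change of 1.79 ± 0.37 (SE) with an edgeR adjusted p of 0.0573 (unadjusted 0.000283).

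Neat1 (ENSMUSG00000092274, chr19:5874736-5897132, minus strand) is the next gene of this set on chromosome 19. It read 15670, 15838, 18390 and 19678 in Ctrl mice. It read 20897, 28758, 44009 and 37006 in AngII mice, and all 4 of them lay above all 4 Ctrl mice. The means were 32667 ± 10021 and 17394 ± 1967, a log2 fold change of 0.91 ± 0.22 with an edgeR adjusted p of 0.0579.

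Kcnq1ot1 (ENSMUSG00000101609, chr7:142731402-142850327, minus strand), the antisense RNA of the Kcnq1 locus, read 880, 820, 542 and 969 in Ctrl mice. It read 1255, 2238, 2521 and 3564 in AngII mice, so the groups did not overlap. The means were 2394 ± 950 and 803 ± 184, a log2 fold change of 1.57 ± 0.28. Its unadjusted edgeR p of 5.55e-05 ranked 9 of 19145 genes, and its adjusted p was 0.0573. Its exons overlap those of Kcnq1 on the opposite strand over 834 bases, and the strand setting of the counting is not given in the sources used here. Kcnq1 itself read lower in AngII (log2 fold change -1.68), so the direction of the pair differed.

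Neat1 and Kcnq1ot1, 2 of the 9 RNAs, were thus higher in every AngII mouse than in any Ctrl mouse, against 7.46% of all tested genes. An adjusted p under 0.06 was reached by Malat1, Neat1 and Kcnq1ot1 and by 566 genes in all (2.96%). With the DESeq2 Wald test these 3 RNAs were called higher, with log2 fold changes of 1.85 (adjusted p = 0.000178), 0.95 (adjusted p = 0.00159) and 1.62 (adjusted p = 5.66e-05). DESeq2 called 9.16% of all tested genes higher. Without AngII 3, AngII 4 and AngII+LY 1 the log2 fold changes were 0.93 for Malat1, 0.51 for Neat1 and 1.12 for Kcnq1ot1, each with an edgeR adjusted p of 0.486. With DESeq2 and without those libraries only Kcnq1ot1 of the 9 was called (adjusted p = 0.0364), as were 0.402% of all genes in that direction. The edgeR calls also turned on single mice. Without AngII 1 the edgeR test called Malat1 (log2 fold change 2.04), Neat1 (1.07) and Kcnq1ot1 (1.79), each at an adjusted p of 0.0251. Without Ctrl 4 it called Malat1 (2.09, adjusted p = 0.02495), Neat1 (0.97, adjusted p = 0.0444) and Kcnq1ot1 (1.68, adjusted p = 0.0249), and without AngII 2 Malat1 (1.95) and Kcnq1ot1 (1.60) at an adjusted p of 0.0478. These fits called 5.85%, 3.39% and 1.63% of all genes higher.

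**Figure D1:**
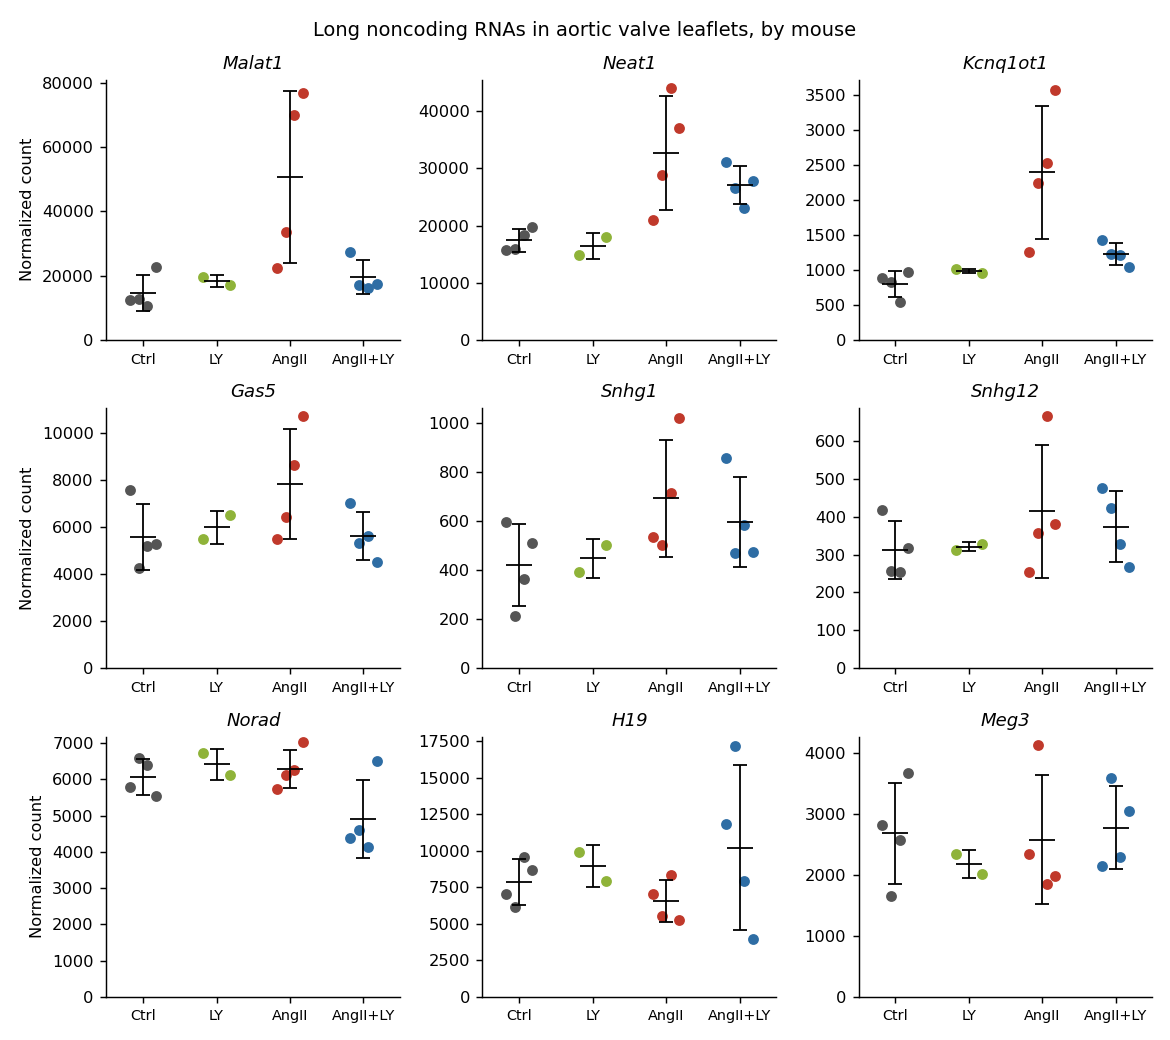
Normalized count (y axis) of 9 long noncoding RNAs in each mouse (points) by group (x axis), with the group mean and bars of 1 SD (4 mice, 2 in LY). Neat1 and Kcnq1ot1 are higher in all 4 AngII mice than in all 4 Ctrl mice, and Malat1 is highest in 2 AngII mice (70119 and 76984).

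The snoRNA hosts read higher on average in AngII without separating from Ctrl. Gas5 (ENSMUSG00000053332, chr1:160861793-160866118, plus strand), named for its rise in growth-arrested cells, read 7600, 4283, 5205 and 5269 in Ctrl and 5520, 6430, 8629 and 10737 in AngII mice. AngII 3 and AngII 4 exceeded every Ctrl mouse and the other two did not. Its log2 fold change was 0.49 ± 0.24 (edgeR adjusted p = 0.213). Snhg1 (chr19:8700319-8703812, plus strand), host of Snord22 and other snoRNAs, read 595, 213, 365 and 512 in Ctrl and 534, 502, 714 and 1019 in AngII mice, with a log2 fold change of 0.71 ± 0.35 (adjusted p = 0.213). Snhg12 (chr4:132035905-132038762, plus strand), host of Snora16a, Snora44, Snora61 and Snord99, read 417, 257, 255 and 318 in Ctrl and 255, 358, 665 and 381 in AngII mice, with a log2 fold change of 0.41 ± 0.33 (adjusted p = 0.459). Without the 3 libraries above 20% mitochondrial counts the log2 fold changes were 0.09 for Gas5, 0.30 for Snhg1 and -0.03 for Snhg12, and with a correction for GC content, described below, 0.26, 0.24 and 0.32. Exons of these hosts can share bases with other genes, which without a known strand setting leaves part of a count uncertain: Snhg1 overlaps Slc3a2 on the opposite strand over 743 bases.

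Norad, H19 and Meg3 showed no difference beyond their spread. Norad (ENSMUSG00000102869, chr2:156229977-156234978, minus strand) read 5794, 6579, 6391 and 5535 in Ctrl and 5750, 6126, 6261 and 7021 in AngII mice, and the fit gave it a log2 fold change of 0.05 ± 0.16 (adjusted p = 0.882 by edgeR). H19 (ENSMUSG00000000031, chr7:142129262-142133957, minus strand), a fetal growth RNA, read 7012, 6150, 9584 and 8687 in Ctrl and 7063, 5520, 8341 and 5268 in AngII mice. For H19 the log2 fold change was -0.26 ± 0.34 (adjusted p = 0.671). Meg3 (ENSMUSG00000021268, chr12:109506877-109538165, plus strand) read 2810, 1653, 2567 and 3673 in Ctrl and 2346, 4131, 1852 and 1975 in AngII mice, with a log2 fold change of -0.05 ± 0.29 (adjusted p = 0.93). Miat (chr5:112361094-112377261, minus strand), an RNA first tied to myocardial infarction, read 0, 5, 6 and 4 in Ctrl and 2, 0, 0 and 10 in AngII mice, which is too low to compare. Its highest value was 73, in AngII+LY 2.

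**Figure D2:**
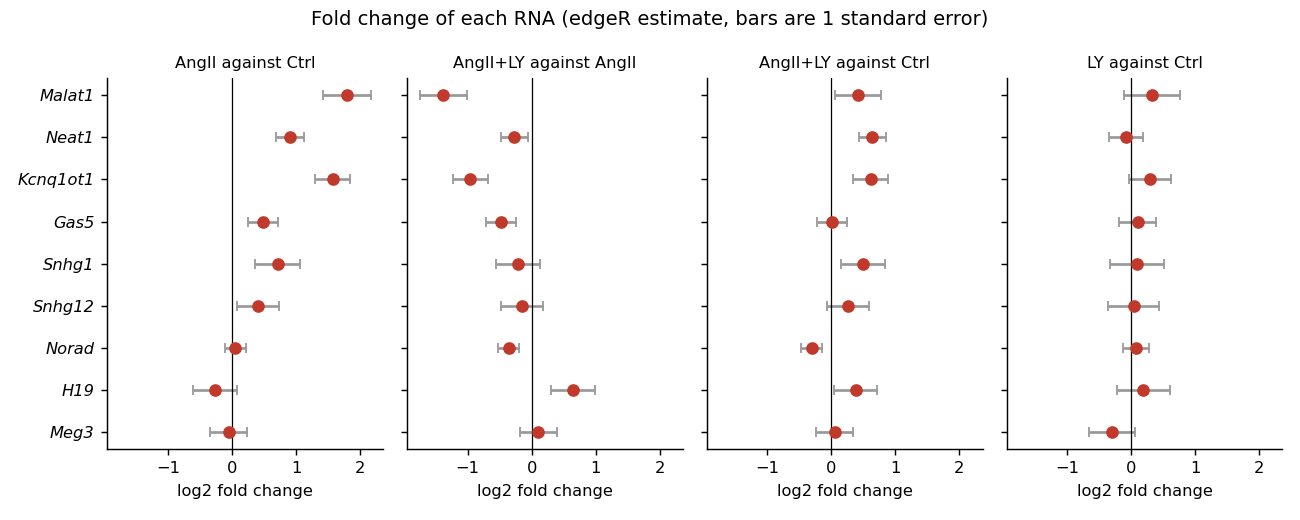
Log2 fold change (x axis) of the 9 tested RNAs (y axis) in 4 comparisons, from the edgeR fit of all 14 libraries, with bars of 1 standard error. Malat1 (1.79), Kcnq1ot1 (1.57) and Neat1 (0.91) lie farthest from 0 in AngII against Ctrl, and Malat1 (-1.38) and Kcnq1ot1 (-0.96) in AngII+LY against AngII.

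The second question was whether these RNAs differ when the HTR2B antagonist was given with AngII. Malat1 was lower in AngII+LY than in AngII leaflets (0.384-fold) and Kcnq1ot1 was lower as well (0.514-fold), while Neat1 differed less (0.83-fold) and H19 read higher (1.56-fold). None was called by edgeR, which called 0 genes here (4315 with an unadjusted p under 0.05, 22.5%). In the AngII+LY mice Malat1 read 27318, 17216, 16023 and 17370, so 3 of the 4 lay below every AngII mouse and AngII+LY 1 lay above AngII 1. Its log2 fold change was -1.38 ± 0.37 (edgeR adjusted p = 0.0713). Kcnq1ot1 read 1431, 1231, 1208 and 1047, with 3 of 4 mice below every AngII mouse and a log2 fold change of -0.96 ± 0.27 (adjusted p = 0.0791). Neat1 read 31056, 26530, 23096 and 27730, inside the AngII range in every mouse, with a log2 fold change of -0.27 ± 0.22 (adjusted p = 0.495).

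Gas5 read 7027, 5321, 5631 and 4536 in AngII+LY mice (log2 fold change -0.48, edgeR adjusted p = 0.249). Norad read 4373, 4592, 4139 and 6497, with 3 mice below every other library of the series and AngII+LY 4 among the AngII values. Its log2 fold change was -0.36 ± 0.16, with an adjusted p of 0.213. Without the 3 libraries above 20% mitochondrial counts the values were -0.19 for Gas5 and -0.21 for Norad. H19 ranged most widely, at 11863, 17168, 7921 and 3959, so that AngII+LY 2 held the highest and AngII+LY 4 the lowest H19 value of all libraries. Its log2 fold change was 0.64 ± 0.34 (adjusted p = 0.281), or 0.30 without AngII+LY 2 and 0.23 with the correction for GC content. Meg3 (0.10), Snhg1 (-0.22) and Snhg12 (-0.15) differed by less than their standard errors.

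None of the 9 RNAs separated the AngII+LY from the AngII mice completely, against 5.66% of tested genes that were lower in every AngII+LY mouse and 5.45% that were higher. DESeq2 called 2 of the 9 lower, Malat1 (adjusted p = 0.00494) and Kcnq1ot1 (adjusted p = 0.0163), as it did 5.54% of all tested genes. Without the 3 libraries above 20% mitochondrial counts the log2 fold changes were -0.71 for Malat1 (edgeR adjusted p = 0.292) and -0.57 for Kcnq1ot1 (adjusted p = 0.346), and the sign of Neat1 turned (0.07). Without AngII 1 edgeR called Malat1 (-1.63) and Kcnq1ot1 (-1.17), each at an adjusted p of 0.0351, as it did 2.36% of all genes lower. The comparison shares its AngII mice with the comparison against Ctrl, so the pair of results is not independent.

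The ratio of Malat1 to Neat1 normalized counts within a library does not depend on library scaling. It was 0.790, 0.796, 0.582 and 1.16 in Ctrl, 1.31 and 0.952 in LY, 1.07, 1.17, 1.59 and 2.08 in AngII, and 0.880, 0.649, 0.694 and 0.626 in AngII+LY mice. The ratio was lower in all 4 AngII+LY mice than in all 4 AngII mice, and it overlapped between Ctrl and both. This ratio was chosen after the values were seen and is given without a test.

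The remaining comparisons concerned the antagonist with AngII against untreated mice, and the antagonist alone. Neat1 was higher in all 4 AngII+LY than in all 4 Ctrl mice (27103 ± 3286 vs. 17394 ± 1967, SD), with a log2 fold change of 0.64 ± 0.22 and an edgeR adjusted p of 0.322. The edgeR test called 0 genes here as well (11% with an unadjusted p under 0.05). Kcnq1ot1 did not overlap either (1229 ± 157 vs. 803 ± 184), with a log2 fold change of 0.61 ± 0.27 (adjusted p = 0.424). These were 2 of 9 RNAs, against 3.27% of tested genes that were higher in every AngII+LY mouse. Without the 3 libraries above 20% mitochondrial counts DESeq2 called Neat1 in this comparison (adjusted p = 0.0185, log2 fold change 0.60), as it did 1.47% of all genes in that direction, while edgeR gave 0.58 for Neat1 (adjusted p = 0.215) and 0.55 for Kcnq1ot1 (adjusted p = 0.375). The other 7 had log2 fold changes from -0.31 (Norad) to 0.50 (Snhg1).

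In the LY mice Malat1 read 19558 and 17119, Neat1 14874 and 17980, and Kcnq1ot1 1005 and 961. Gas5 read 5487 and 6502, Snhg1 391 and 504, Snhg12 312 and 329, Norad 6720 and 6117, H19 9955 and 7937, Meg3 2338 and 2012, and Miat 7 and 0. For each of the 9 tested RNAs the LY values overlapped with Ctrl, against 5.64% of genes whose LY values both lay above all Ctrl values and 6.41% whose LY values both lay below them. The edgeR test called 0 genes in this comparison (1.39% with an unadjusted p under 0.05). Log2 fold changes ran from -0.30 (Meg3) to 0.33 (Malat1), each with an edgeR adjusted p of 1, and 2 mice give little precision, as the standard error of 0.44 for Malat1 shows.

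The interaction asks whether the difference with the antagonist was another one in the presence of AngII, and it rests on the 2 LY mice. It was -1.71 ± 0.57 on the log2 scale for Malat1 and -1.25 ± 0.42 for Kcnq1ot1, each with an edgeR adjusted p of 0.295. Unadjusted, these were 2 of the 9 RNAs with p under 0.05 (0.00921 and 0.0103), against 13.3% of all tested genes. Without the 3 libraries above 20% mitochondrial counts it was -1.04 for Malat1 and -0.87 for Kcnq1ot1 (adjusted p 0.374 and 0.405), and with the correction for GC content -1.26 and -0.49. For the other 7 RNAs it ran from -0.58 (Gas5) to 0.46 (H19).

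The highest levels of these 3 RNAs were in libraries with a high mitochondrial share. Malat1, Neat1 and Kcnq1ot1 each read highest in AngII 3 and AngII 4, at 24.7 and 25.5% mitochondrial counts. Within AngII+LY, Malat1, Neat1 and Kcnq1ot1 each read highest in AngII+LY 1, at 20.2%. Within Ctrl, Malat1, Neat1 and Kcnq1ot1 each read highest in Ctrl 4, which had the highest share of that group (7.52%). Below those libraries the levels followed the share in some cases and not in others. Neat1 read 15670, 15838 and 18390 in Ctrl mice 1 to 3, at shares of 4.00, 5.28 and 5.49%, where Kcnq1ot1 read 880, 820 and 542. Neat1 was also higher in LY 2 (17980, share 9.76%) than in LY 1 (14874, share 8.62%), while Malat1 and Kcnq1ot1 were lower in LY 2. AngII 1 (11%) read below AngII 2 (9.83%) for all 3 RNAs. At a share near 10%, AngII 2 (9.83%) read 33559 for Malat1 and 2238 for Kcnq1ot1, above LY 2 (9.76%) at 17119 and 961 and AngII+LY 2 (10.1%) at 17216 and 1231. The other AngII library near that share, AngII 1 (11%), lay closer to these, at 22266 and 1255. AngII+LY 3 (11.8%) read 16023 and 1208. The part of the mitochondrial share in these levels was not tested beyond leaving out the 3 libraries above 20%.

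**Figure D3:**
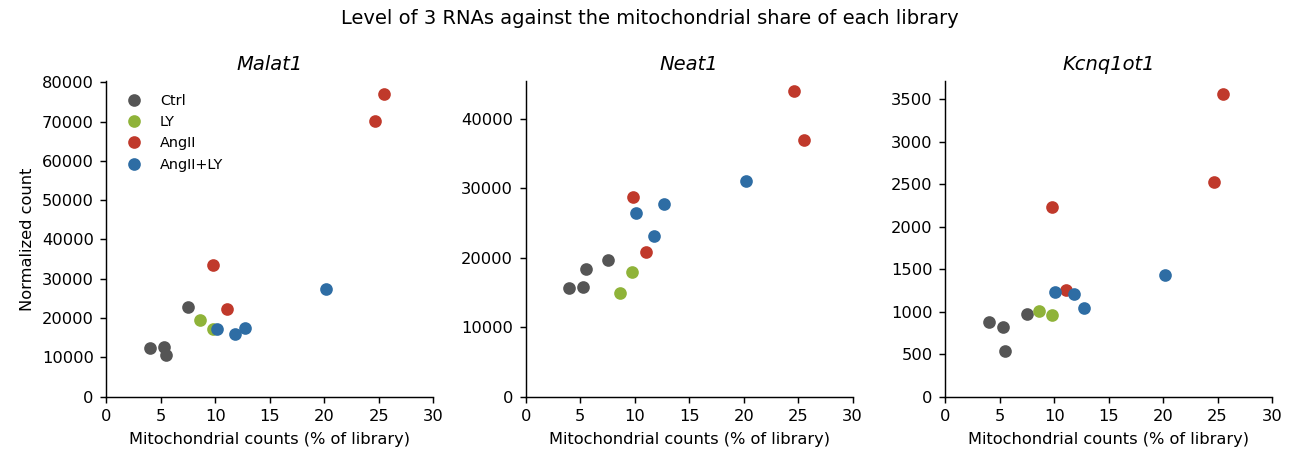
Normalized count (y axis) of Malat1, Neat1 and Kcnq1ot1 against the percentage of the library's counts on mitochondrial genes (x axis), 1 point per library, coloured by group. The 2 AngII libraries near 25% hold the highest values of all 3 RNAs, and AngII 2 lies above libraries of other groups at a share near 10%.

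Fold changes also moved with the GC content of a gene's exons, over all genes. Tested genes were split by GC content into 5 classes of equal size. The lowest class (27.5 to 43.5%) had a median log2 fold change of 0.68 in AngII against Ctrl, the next classes had 0.25, -0.09 and -0.38, and the highest class (54.2 to 78.3%) had -0.52. Kcnq1ot1 (40.4% GC) and Snhg1 (43.4%) lie in the lowest class, and Malat1 (43.8%), Norad (45.9%) and Gas5 (46.0%) in the next. Neat1 (47.7%) and Snhg12 (47.2%) lie in the middle, where the median was near 0, Meg3 (50.4%) in the fourth class and H19 (55.65%) in the highest. After a per-library correction for GC content the log2 fold change was 1.33 for Malat1, 0.88 for Neat1 and 0.83 for Kcnq1ot1 (edgeR adjusted p 0.159, 0.16 and 0.162), so that of Kcnq1ot1 shrank most and that of Neat1 least. For AngII+LY against AngII the corrected values were -0.98 for Malat1, -0.22 for Neat1 and -0.37 for Kcnq1ot1. H19 read -0.26 without and 0.25 with the correction in AngII against Ctrl, a change of sign.

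**Figure D4:**
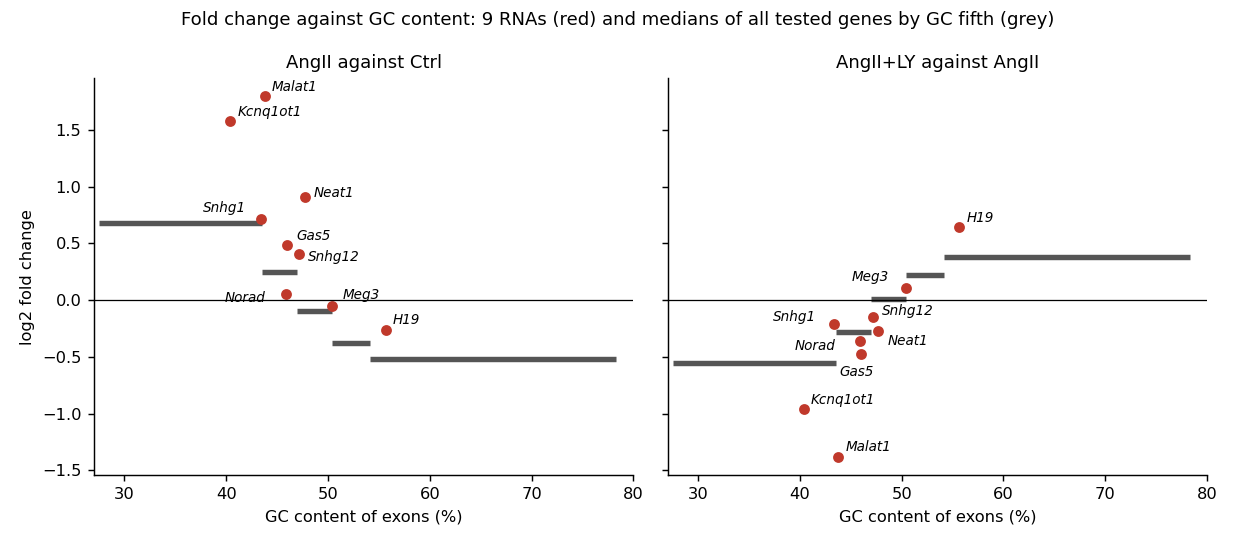
Log2 fold change (y axis) against exon GC content in percent (x axis) for the 9 RNAs (red points) and for the medians of all tested genes in 5 equal classes of GC content (grey bars over the range of each class), in AngII against Ctrl and AngII+LY against AngII. Malat1, Kcnq1ot1 and Neat1 lie above the median of their class in the first comparison and below it in the second.

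**Figure D5:**
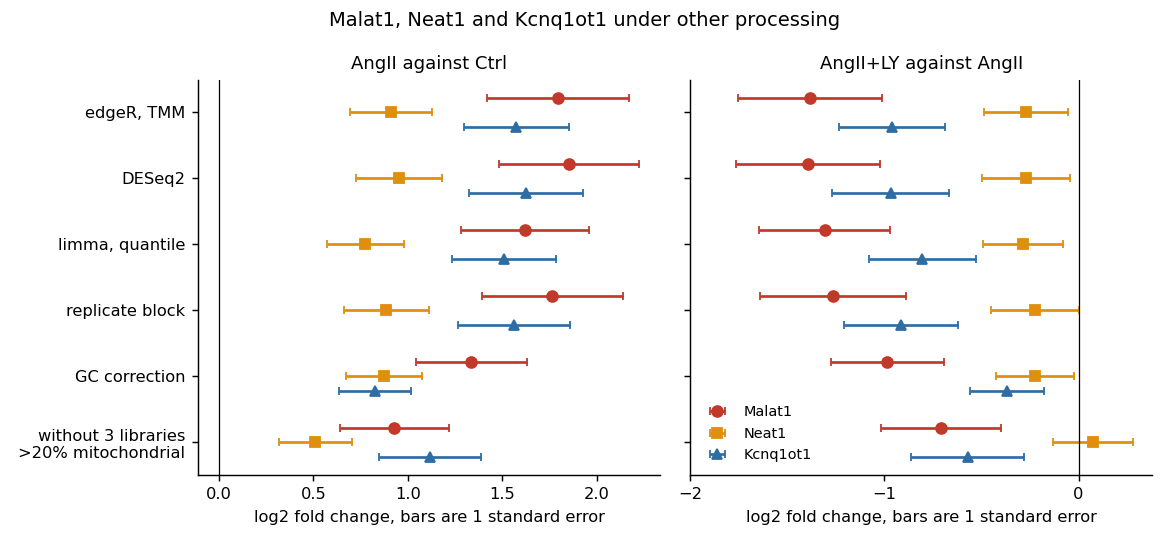
Log2 fold change (x axis) of Malat1, Neat1 and Kcnq1ot1 with bars of 1 standard error under 6 ways of processing (y axis), in AngII against Ctrl and AngII+LY against AngII. All 3 stay above 0 in the first comparison, at 0.51 or more, and Neat1 turns from -0.27 to 0.07 in the second without the 3 libraries above 20% mitochondrial counts.

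Markers of other cell types differed as well, and their part in these values was not tested. In AngII against Ctrl all 6 smooth muscle markers had lower values (0.0521 to 0.960% of counts in Ctrl, 0.0330 to 0.0862% in AngII), as did all 8 adipocyte markers (0.0871 to 0.123%, 0.0406 to 0.0719%). The 10 cardiomyocyte markers summed to 0.842 to 2.78% in Ctrl and 0.717 to 1.45% in AngII, with 6 lower and 4 higher. In AngII+LY against AngII all 10 cardiomyocyte markers were higher (1.84 to 3.67% of counts) and all 8 valve interstitial markers lower (0.358 to 0.596%, against 0.904 to 1.38% in AngII). No marker of these lists was at 0 in every library. In bulk leaflets, fewer cells of a type that holds an RNA and less of that RNA per cell cannot be told apart.

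The proteins that work with these RNAs were read from lists, described by their counts beside the median of all tested genes, which was -0.06 in AngII against Ctrl (47.2% higher, 52.7% lower) and -0.02 in AngII+LY against AngII (49.1% higher, 50.9% lower). Of 19 tested nuclear speckle and splicing proteins, the surroundings of Malat1, 14 were higher and 5 lower in AngII (median 0.48, 0 called by edgeR). Higher without overlap were 5 of the 19, against 7.46% of all tested genes. In AngII+LY against AngII 2 were higher and 17 lower (median -0.38). Srsf1, a splicing factor, read 9608 ± 1437 in AngII and 4759 ± 1701 in Ctrl (log2 fold change 1.01, edgeR adjusted p = 0.0574). Rbm25, an RNA-binding regulator of splicing, had 1.15 and -0.86 in the 2 comparisons, and Pnn 0.83 in the first. Corrected for GC content, Rbm25 had 0.21 in the first. With the correction for GC content the median of the list was 0.02 in AngII against Ctrl, with 10 higher and 9 lower, and -0.13 in AngII+LY against AngII, with 5 higher and 14 lower.

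Of 16 paraspeckle proteins, the partners of Neat1, 12 were higher and 4 lower in AngII (median 0.37, corrected for GC 0.06), and 3 were higher and 13 lower in AngII+LY against AngII (median -0.31, corrected for GC -0.026 with 6 higher and 10 lower). Hnrnpk, which steers the choice of the Neat1 3′ end, read 44579 ± 10229.6 in AngII and 24014.5 ± 5159 in Ctrl (log2 fold change 0.89, edgeR adjusted p = 0.0574, without overlap). It read 25606 ± 2562 in AngII+LY, a log2 fold change of -0.80 (adjusted p = 0.0629), also without overlap. Tardbp (0.93) and Matr3 (1.14) were the next by p in AngII against Ctrl. Corrected for GC content, Hnrnpk had 0.46, Tardbp 0.34 and Matr3 0.35 in that comparison, and Hnrnpk had -0.43 in AngII+LY against AngII. The 5 tested genes next to Malat1 and Neat1 on chromosome 19 were all lower in AngII (median -0.56), with Ltbp3 at -0.59 and Ehbp1l1 at -0.38, opposite in sign to the 2 RNAs. Corrected for GC content, 4 of these 5 were lower and Ehbp1l1 was at 0.12.

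The imprinted neighbours were described in the same way. Of 9 tested genes of the H19 and Kcnq1ot1 domains all 9 had lower values in AngII against Ctrl (median -0.37), and 8 of 9 had higher values in AngII+LY against AngII (median 0.31). Corrected for GC content, 4 were higher and 5 lower in the first comparison, and 5 were higher and 4 lower in the second (median 0.095). Igf2, the growth factor expressed in opposition to H19, read 67.7 ± 27.5 in AngII and 156 ± 60.3 in Ctrl (log2 fold change -1.20, edgeR adjusted p = 0.123). Slc22a18 had -0.92 and Kcnq1 -1.68, the latter with a Ctrl mean of 1015 ± 1271, an SD above its mean. Of 6 tested genes of the Dlk1-Meg3 domain, Dlk1, a preadipocyte and fetal protein, read 95.1 ± 70.9 in Ctrl and 2.0 ± 3.15 in AngII mice, without overlap (log2 fold change -5.95 ± 1.55, adjusted p = 0.0599). Rian, the noncoding RNA transcribed downstream of Meg3, had 0.83 (0.10 corrected for GC content), while Meg3 itself was near 0. Of 12 other imprinted growth genes 6 were higher and 6 lower, with Plagl1, a zinc finger regulator of that network, at 1.49 (adjusted p = 0.0803) and Nnat at -2.79.

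For the snoRNA hosts, 15 other host genes gave 7 higher and 8 lower in AngII (median -0.05), with Snhg4 at 1.90, Epb41l4aos at 1.0 and Snhg6 at 0.71. Epb41l4aos read 556 ± 115 in AngII and 278 ± 58.7 in Ctrl mice, without overlap (edgeR adjusted p = 0.0617), and had 1.03 with the correction for GC content. With that correction Snhg4 had 1.46 and Snhg6 had 0.39. Of 16 genes with a 5′ TOP start, 7 were higher and 9 lower (median -0.24), with Tpt1 at 1.37, Npm1 at 1.21 and Eif3e at 1.01. An unadjusted edgeR p under 0.05 was reached by 6 of the higher and 6 of the lower TOP genes. Of 13 nucleolar proteins that bind snoRNAs or act beside them, 7 were higher and 6 lower (median 0.10), with Naf1, needed to assemble H/ACA snoRNAs, at 1.89, Npm1 at 1.21 and Ncl at 0.73. Of 14 nonsense-mediated decay factors, which clear the spliced hosts, 5 were higher and 9 lower (median -0.26), with Upf3b at 1.23, Smg1 at 0.91 and Upf2 at 0.65. Corrected for GC content the medians were 0.13 for the other hosts, -0.11 for the TOP genes, 0.12 for the nucleolar proteins and -0.14 for the decay factors. In AngII+LY against AngII, Upf3b had -1.13, Upf2 -0.82 and Smg9 0.53 among the decay factors. Of the nucleolar list 5 were higher and 8 lower, with 2 higher and 4 lower without overlap. Nhp2, a core H/ACA protein with the smallest p of that list, had 0.83 and was higher without overlap. Naf1 had -1.41 and Nop58 -0.86. Of the TOP genes 9 were higher and 7 lower, and 7 were higher in every AngII+LY mouse than in any AngII mouse. Among those 7 were Eef1g, Rack1 and Rpl11, at 0.58, 0.64 and 0.56. Over all tested genes 5.45% were higher and 5.66% lower in this way. None of the named genes passed the edgeR test.

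A list of 8 genes, Pumilio proteins and others that are not all genes of mitosis, was read beside Norad. Of these 8, 7 were higher and 1 lower in AngII against Ctrl (median 0.62, corrected for GC 0.47). All 8 were lower in AngII+LY against AngII (median -0.47), where corrected for GC content 2 were higher and 6 lower. Pum2 read 5103 ± 1731 in AngII and 2344 ± 466 in Ctrl mice, without overlap (log2 fold change 1.12, edgeR adjusted p = 0.0574), and Cdkn1b, an inhibitor of the cell cycle, and Samd4 each had 1.15. Norad itself had a log2 fold change of 0.05. Gas5 can bind the glucocorticoid receptor as a decoy, and of 10 genes of the receptor and its targets 4 were higher and 6 lower in AngII (median -0.24). Corrected for GC content the median of these genes was -0.07, with 5 higher and 5 lower. Cebpd (-1.35, adjusted p = 0.0573), Per1 (-0.97) and Sgk1 (-0.74) were lower in every AngII than in any Ctrl mouse, as were 7.56% of all tested genes, and Per1 (0.79) was higher in every AngII+LY than in any AngII mouse.

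Of 19 other tested noncoding RNAs, 14 were higher and 5 lower in AngII (median 0.16, corrected for GC 0.01). Tug1, a nuclear lncRNA, read 8324 ± 2731 in AngII, 3283 ± 891 in Ctrl and 3480 ± 717 in AngII+LY mice. It did not overlap in either direction (log2 fold changes 1.34 and -1.26, edgeR adjusted p 0.0573 and 0.0588). Mir100hg, the host of the miR-100 cluster, had 2.01 and -1.55, and Oip5os1, known as Cyrano, had 1.03 in AngII against Ctrl. Corrected for GC content Tug1 had 0.77, Mir100hg 1.54 and Oip5os1 0.27 in that comparison.

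Likeness was measured as Pearson's r of log2(normalized count + 1) over the 14 libraries, among 13619 genes averaging 100 or more counts, and is a description, since the libraries share their groups and their mitochondrial shares. Malat1 was most like Gmfb and Wtap (r = 0.98 each), Kcnq1ot1 like Syncrip and Azin1 (0.97 each), and Neat1 like Psma1 and Srp9 (0.94 each). Gas5 was most like Sec11c (0.95) and Nbdy (0.93), Snhg1 like 6720427I07Rik and Rel (0.92 each), Snhg12 like Gm19705 and Set (0.87 each), and Norad like Sepsecs and Letm2 (0.87 each). H19 (Gdpgp1, 0.84) and Meg3 (Slc2a4rg-ps, 0.82) had no partner as close. Among the 9 RNAs, Malat1 and Kcnq1ot1 had r = 0.94, Gas5 and Snhg1 0.83, and Malat1 and Neat1 0.82, while Malat1 had -0.17 with both H19 and Meg3.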

How the data were processed

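Bulk RNA-seq of aortic valve leaflets was analysed in 14 libraries (Ctrl 4, LY 2, AngII 4, AngII+LY 4), grouped by sample title. The authors trimmed reads after FastQC, aligned them to GRCm39 with HISAT2 and counted genes with featureCounts, and the deposited values are raw counts per Ensembl gene. The selection of RNA for the library and the strand setting are not given in the sources used here, and both matter for RNAs without a poly(A) tail or with antisense neighbours. Identifiers were matched to GENCODE vM39 (618 of 56941 unmatched, 102 of them tested).

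Genes averaging 10 or more counts were tested with edgeR 4.0.16 (R 4.3.3, quasi-likelihood, legacy=TRUE as installed, TMM) in 1 fit of 4 groups. Normalized counts are counts scaled to the mean effective library size of 55076900. A call required an adjusted p under 0.05 together with a log2 fold change beyond 0.5 in either direction. DESeq2 1.42.0, limma 3.58.1, other scalings, filters, a loess correction for GC content (span 0.3, 19043 genes with a GC value) and leaving out libraries were alternatives. The fit was also run on simulated data, with planted changes larger than those of these RNAs in the main fit. No effect of GC content or mitochondrial share was simulated. That run therefore cannot show whether changes of the size reported here would be called. No libraries were duplicates by a chi-square comparison of counts. The replicate numbers were read as sample names and not as pairs, and precision is set by the 2 to 4 mice of a group.

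The 10 RNAs, the gene lists and the tests were chosen with earlier results of these data known. Named genes are all 10 RNAs, up to 3 genes per list with the smallest unadjusted p in AngII against Ctrl and in AngII+LY against AngII, and the 2 genes most like each tested RNA, and some items that this rule gives are not reported here. Promoters and the microRNA come from RefSeq tables, other sequences from the GRCm39 genome.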

Additional observations from a re-analysis of the deposited data

Results flagged for a closer look

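Among 30 groups of 4 mice (each tested or untested RNA in Ctrl, AngII and AngII+LY), 2 held a mouse whose gap to the others was above Dixon's critical value for 4 samples, and chance flags about 1 in 20 groups. Both concern Malat1. Ctrl 4 read 22839 normalized counts against 10705 to 12601 in the other Ctrl mice (a gap of 0.844 of the group's range). AngII+LY 1 read 27318 against 16023 to 17370 in the other AngII+LY mice (a gap of 0.881 of the range). Each was the library with the highest mitochondrial share of its group, at 7.52 and 20.2% of counts.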

How the results depend on the processing

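The edgeR test called 0 genes in all 5 comparisons. So did edgeR with DESeq2 size factors, with robust=TRUE and without mitochondrial genes in the library sizes. The same held with replicate number as a block, with the GC correction and with both together. A fit of only the 2 groups compared also called 0 genes in each of its comparisons. Other settings did call genes. DESeq2 called 2663 genes in AngII against Ctrl, 2082 in AngII+LY against AngII, 343 in AngII+LY against Ctrl, 21 in LY against Ctrl and 203 for the interaction, and without the 3 libraries above 20% mitochondrial counts 160, 1015, 742, 29 and 362. The first 3 of these comparisons gave 232, 326 and 8 calls with limma after quantile normalization, 123, 1 and 13 with no filter, and 240, 403 and 6 with limma at a pseudocount of 10. A pseudocount of 0.5 gave 319 in AngII+LY against AngII and 4 in AngII+LY against Ctrl. The edgeR option legacy=FALSE gave 555 and 176 in the first 2, and edgeR without the 3 libraries gave 1 in AngII+LY against Ctrl. That option and the fits without the 3 libraries were chosen after seeing the data. The cause was not tested.

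Leaving out 1 mouse at a time moved these counts between 0 and 1726 in AngII against Ctrl (1726 without AngII 1, 799 without Ctrl 4, 360 without AngII 2), between 0 and 842 in AngII+LY against AngII (842 without AngII 1) and between 0 and 3 in AngII+LY against Ctrl. With mitochondrial counts out of the denominator the 10 RNAs' mean share was 0.225% in place of 0.181% in AngII and 0.129% in place of 0.117% in LY.

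Malat1, Neat1 and Kcnq1ot1 kept their direction in AngII against Ctrl under all 17 alternatives other than leaving out 1 mouse, at log2 fold changes of 0.93 to 1.85, 0.51 to 0.95 and 0.83 to 1.62, and passed the threshold under 5, 2 and 6 of them. The alternative legacy=TRUE is the main fit itself, so its agreement was fixed in advance. Several others differ from the main fit only in scaling, so the 17 are not independent checks. Other values changed sign, none of them past the threshold in the edgeR test. With the GC correction, and with it and the replicate block, the values in AngII against Ctrl were 0.14 and 0.11 for Meg3, 0.25 and 0.23 for H19 and -0.16 and -0.17 for Norad. In AngII+LY against AngII they were -0.051 and -0.048 for Meg3 and 0.17 and 0.16 for Snhg1, in AngII+LY against Ctrl -0.020 and -0.011 for Gas5, and for the interaction -0.051 and -0.018 for H19 and 0.16 and 0.0082 for Snhg1.

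Without the 3 libraries above 20% mitochondrial counts (edgeR with 4 groups, edgeR with 2 groups, DESeq2) the values in AngII against Ctrl were 0.27, 0.28 and 0.27 for Meg3, -0.029, -0.013 and -0.032 for Snhg12 and -0.036, -0.021 and -0.040 for Norad. In AngII+LY against AngII they were 0.073, 0.055 and 0.090 for Neat1, -0.10, -0.12 and -0.085 for Meg3 and 0.16, 0.15 and 0.18 for Snhg12, and 0.0046 for Snhg1 with DESeq2. In AngII+LY against Ctrl they were -0.10, -0.11 and -0.088 for Gas5. For the interaction, edgeR and DESeq2 gave 0.15 and 0.16 for Neat1 and 0.12 and 0.13 for Snhg12. Quantile normalization gave -0.022 for Norad in AngII against Ctrl, and no filter gave -0.011 for Gas5 in AngII+LY against Ctrl.

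Leaving out 1 mouse turned further signs. The ranges were -0.38 to 0.14 for Meg3 and -0.0069 to 0.091 for Norad in AngII against Ctrl, and -0.027 to 0.43 for Meg3, -0.44 to 0.029 for Snhg1 and -0.33 to 0.17 for Snhg12 in AngII+LY against AngII. They were -0.12 to 0.24 for Meg3 and -0.11 to 0.19 for Gas5 in AngII+LY against Ctrl, and -0.36 to 0.14 for Snhg12 for the interaction. In LY against Ctrl they were -0.23 to 0.048 for Neat1, -0.027 to 0.29 for Gas5, -0.13 to 0.30 for Snhg1 and -0.045 to 0.21 for Snhg12.

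Deviations from the group mean had correlations of -0.13 to 0.090 between mice with the same replicate number. Between mice with different numbers they were -0.11 to 0.20. Centring within groups ties these values to one another, so they cannot exclude a shared batch. The numbers were read as sample names and not as pairs. With the replicate block the values in AngII against Ctrl were 1.76 for Malat1, 0.89 for Neat1 and 1.56 for Kcnq1ot1 (edgeR adjusted p 0.085, 0.0901 and 0.085), and Neat1 turned to 0.053 in LY against Ctrl (0.060 with the GC correction as well). The block changed no call and left 0 genes called.

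With 2 LY mice and 4 in the other groups, differences within the spread were not detectable and are not shown to be absent.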
